A study of Homo sapiens with 6 samples.

Results

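This account concerns the ChIP-seq peaks that lay in windows around the centromeres of 20 human chromosomes, those of chromosomes 1, 9, 16 and Y being outside its scope. A peak belonged to a window when its midpoint fell between fixed positions of the hg38 genome build, for example 87 to 97 Mb on chromosome 2, 46 to 51.5 Mb on chromosome 5, 22 to 28 Mb on chromosome 17 and 57 to 63.5 Mb on chromosome X. The windows added up to 161.9 Mb. They held 276 of the 1743 peaks of the series, namely 30 of RBMX replicate 1, 33 of RPA1 replicate 1, 117 of RBMX replicate 2 and 96 of RPA1 replicate 2. Near the window limits there was little to divide. On chromosome 17 the peak nearest to the lower limit lay 389 kb inside it and the nearest excluded peak 30.6 kb outside, with a fold of 9.41. On chromosome 20 these distances at the upper limit were 424 kb and 95.4 kb. On chromosome 21 the distances at the lower limit were 387 kb inside and 129 kb outside.

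The libraries came from 293T cells, a human embryonic kidney line. One group had been transfected with Flag-RBMX and the other with Flag-RPA1, and all cells of both groups, inputs included, had been in camptothecin for 24 hours. Chromatin was collected on anti-Flag beads, so the tagged proteins from the transfection were measured. No untreated cells and no precipitation from cells without a Flag-tagged protein were compared here. There were 2 precipitations per protein with a peak list each, and the 2 inputs were not analysed here. The number 2 comes from the labels and the number 1 only names the other sample. The labels do not say whether the precipitations came from separate cultures. Replicate 1 lists rested on 20199680 tags (sequenced fragments kept after filtering) for RBMX and 20089972 for RPA1, and replicate 2 lists on 6664290 and 6889249. The peak caller, its threshold and the tag length also differed between replicate numbers, so processing and replicate cannot be told apart.

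Human centromeres are built on alpha satellite, a short DNA unit repeated head to tail in very long arrays, flanked by other satellites and by duplicated sequence with few genes. In hg38 these arrays are largely represented by modelled sequence, so a coordinate inside one stands for a class of near-identical repeats and not for a single physical site. RPA is the complex that coats single-stranded DNA during replication and repair, and RPA1 is its large subunit. RBMX belongs to the hnRNP proteins, which bind RNA, and has reported roles in splicing, sister chromatid cohesion and the response to DNA damage. Camptothecin traps topoisomerase I on DNA, which leads to breaks when replication forks meet the trapped enzyme.

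The windows held little annotated gene sequence under the peaks. Of 1324 RefSeq genes that reach into the windows, 3 were overlapped by a peak. Merging peaks of the 4 lists that shared at least 1 bp gave 134 regions, of which 104 (77.6%) lay more than 100 kb from any gene and 80 (59.7%) more than 500 kb. Their median distance to a gene was 705 kb. Between genes, more than 1 kb from a boundary, lay nearly every window peak. For RBMX these were 29 of 30 in replicate 1 and 113 of 117 in replicate 2, and for RPA1 31 of 33 and 93 of 96. On the rest of the chromosomes the shares between genes were 31.2% and 53.5% for RBMX and 24.6% and 58.4% for RPA1. Gene-free stretches of at least 1 Mb held between 81.8% (RPA1 replicate 1) and 94.8% (RPA1 replicate 2) of the window peaks. The windows were chosen around centromeres, which hold few genes, so this describes where they lie. Positions of alpha satellite and of other repeats were not used here.

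A single mature RNA could be read under a window peak. MIR3648-2, a microRNA gene on chromosome 21, lay under the region from 8986994 to 8987464, with folds of 13.7 for RBMX and 11.4 for RPA1 in replicate 2, from 20 and 21 tags at the summit. Fold is the authors' value of enrichment over the background of the same list. Elsewhere on chromosome 21, outside the window, replicate 2 had 64 RBMX and 72 RPA1 peaks. Whether the reads under MIR3648-2 belong to this place or to like sequence elsewhere was not tested. The mature RNA of MIR3648-2 is shown because it is the sequence under a window peak that the RefSeq tables used here contain. It lies at 8987026 to 8987046 on the plus strand (GRCh38.p14), 32 bp into the region, and is 81% G and C. The RBMX peak covers it, whereas the RPA1 peak starts at 8987101, past the mature RNA and still within the gene. Capitals mark bases 2 to 8, the seed of the microRNA.
hsa-miR-3648: aGCCGCGGggaucgccgaggg

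The 3 genes were FAM230C, MIR3648-2 and IGLV8OR8-1, of which FAM230C belongs to a family listed for naming (142 genes of such families reach into the windows) and the others were chosen after their values were seen. FAM230C, a long noncoding RNA gene on chromosome 13, carried the region from 18211736 to 18212536, with folds of 33.2 for RBMX and 30.1 for RPA1 in replicate 2. IGLV8OR8-1 on chromosome 8, an immunoglobulin variable segment outside the antibody loci, had a peak in RPA1 replicate 1 alone, with a fold of 6.19. Within 1 kb of a region lay 3 more genes. MTCYBP13, a pseudogene of mitochondrial cytochrome b on chromosome 17, ended 272 bp from a region that all 4 lists held and that is described further on. The noncoding genes LINC01667 (chromosome 21) and LOC107987246 (chromosome 17) lay 455 bp and 889 bp from peaks that RBMX replicate 2 alone held.

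The share of peaks in the windows was higher in replicate 2 than in replicate 1 for both proteins. Of the peaks placed on chromosomes, the windows held 13.1% of 229 for RBMX (exact Clopper-Pearson 95% interval 9.02% to 18.2%) and 9.88% of 334 for RPA1 (interval 6.9% to 13.6%) in replicate 1. In replicate 2 they held 27.1% of 431 (interval 23% to 31.6%) and 25.6% of 375 (interval 21.3% to 30.3%). The intervals cover counting error only, and peaks of a list are not independent replicates. Raising the replicate 1 threshold to the one used for replicate 2, a −log10 p-value of at least 12, left 39 RBMX peaks, 15 of them in the windows, and 50 RPA1 peaks, 17 of them there. These shares, 38.5% and 34%, were then above those of replicate 2. The p-values of the replicate numbers come from different callers, backgrounds and tag counts, so an equal cutoff is not an equal stringency. Within a replicate number the intervals of the 2 proteins overlapped.

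Chromosomes 4, 5, 7 and 17 carried most of the window peaks in every list. Their windows make up 13.6% of the window length and held 26 of 30 and 81 of 117 RBMX peaks in replicates 1 and 2, and 26 of 33 and 68 of 96 RPA1 peaks. That length counts every position, also in the windows of chromosomes 13, 14 and 15, which start at position 0 and take 19.5, 19 and 20.5 Mb. The first peaks lay 16487 kb in on chromosome 13 and 16609 kb in on chromosome 14. How much of the length can take reads was not measured, so 13.6% may be too low a share. The chromosome 5 window had 31 RBMX peaks and 29 RPA1 peaks in replicate 2, against 4 and 4 in replicate 1. In the chromosome 4 window the counts were 19 and 15 in replicate 2 and 9 and 11 in replicate 1. The chromosome 17 window had 23 and 18 in replicate 2 and 7 and 6 in replicate 1, and the chromosome 7 window had 8 and 6 in replicate 2 and 6 and 5 in replicate 1. Chromosomes 4 and 7 thus differed less between the replicate numbers than chromosome 5, where a single span described below held most of the replicate 2 peaks. For RBMX replicate 2 the density was 5.64 peaks per Mb on chromosome 5, 4.22 on chromosome 4 and 3.83 on chromosome 17.

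Other windows were sparse or empty. No list had a peak in the windows of chromosomes 6, 15, 18 and X, although the 4 lists together placed peaks elsewhere on each of these chromosomes, for example 15 RBMX peaks of replicate 1 on chromosome 6 and 14 RBMX peaks of replicate 2 on chromosome X. The windows of chromosomes 12, 13, 14, 19, 21 and 22 had peaks in replicate 2 lists alone. Among these, chromosome 19 had the highest count, with 7 of RBMX and 5 of RPA1. Chromosome 8 had the 1 peak at IGLV8OR8-1. Both replicate numbers had peaks in 9 windows, and in 5 of these (chromosomes 3, 4, 5, 7 and 17) at least 1 region was shared between them. In the other 4 windows the replicate numbers marked different places. Their nearest peaks were 191 kb apart on chromosome 10, 401 kb on chromosome 11, 1079 kb on chromosome 2 and 2569 kb on chromosome 20.

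**Figure D1:**
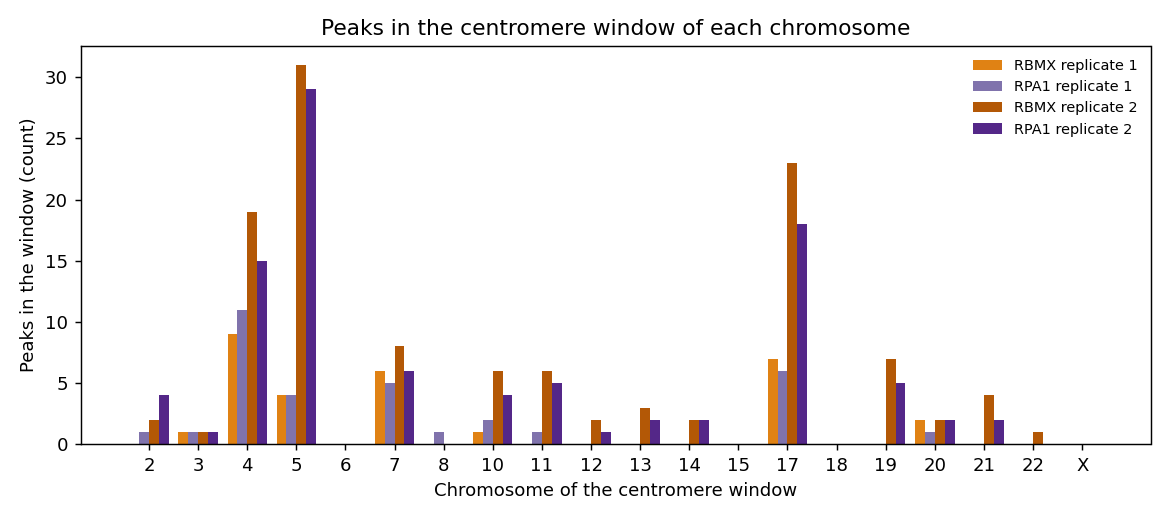
Bars give the number of peaks (y axis) in the centromere window of each chromosome (x axis) for the 4 lists. Chromosomes 4, 5, 7 and 17 hold the most peaks, with 31 of RBMX replicate 2 on chromosome 5, and the windows of chromosomes 6, 15, 18 and X are empty.

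Window peaks had larger folds than the rest of the chromosome peaks in replicate 1, and about equal folds in replicate 2. The median fold in the windows was 12.7 for RBMX (range 5.68 to 46.1) and 12.4 for RPA1 (range 5.47 to 48.0) in replicate 1, against 5.61 and 5.91 outside. In replicate 2 the medians were 19.6 (range 9.79 to 260.4) and 18.2 (range 9.84 to 202), against 17.9 and 16.4 outside. Of the 50 chromosome peaks of largest fold, the windows held 25 in each replicate 1 list, but 9 for RBMX and 8 for RPA1 in replicate 2. Past the stricter threshold the replicate 1 medians were 16.04 against 10.96 for RBMX and 16.13 against 12.28 for RPA1, so the gap was smaller. The 2 sets of folds use different backgrounds. Replicate 1 could use up to 10000 bp around the peak in the precipitated library itself, and replicate 2 used a single level for the whole genome. In replicate 1 some narrow window peaks with equal tags had equal folds at distant places. For RBMX, 18 tags gave a fold of 12.03 on chromosomes 7 and 17, so a local background did not set the fold of every peak. No peak of either set was measured against input DNA at the same place, so binding and copy number of the sequence cannot be told apart.

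**Figure D2:**
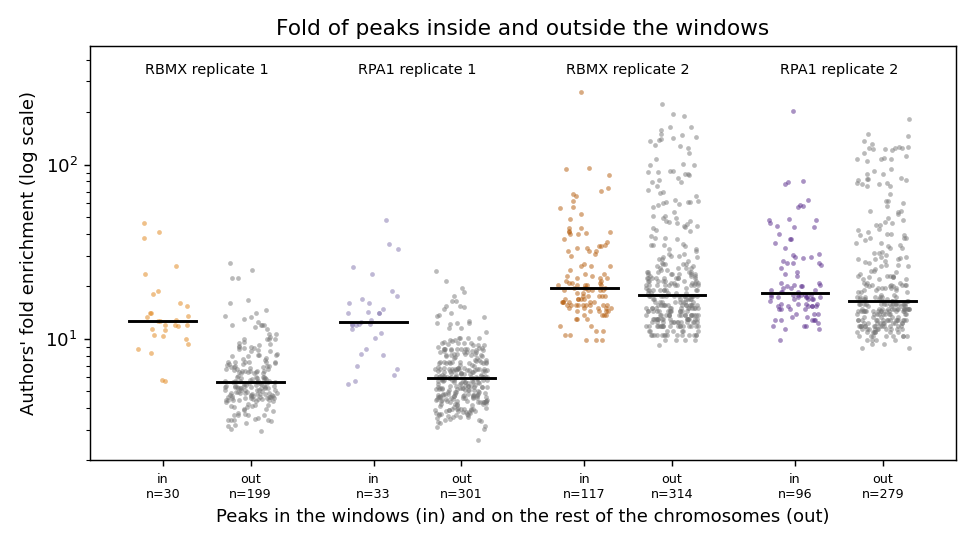
Points are single peaks with their fold (y axis, log scale), inside (in, coloured) and outside (out, grey) the windows for each list (x axis), and black lines are medians. In replicate 1 the medians inside, 12.7 and 12.4, lie above those outside, 5.61 and 5.91, while in replicate 2 they are 19.6 and 18.2 against 17.9 and 16.4.

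Gene-free stretches of at least 1 Mb on chromosomes 1, 9 and 16 served as the nearest comparison. Their median fold was below that of the windows in replicate 1 (9.09 for RBMX and 8.74 for RPA1) and above it in replicate 2 (34.2 and 37.6). The order of these 2 kinds of sequence thus differed between the replicate numbers for both proteins. The chromosome peaks outside both kinds had medians below those of the windows in each list. These were 5.355 for RBMX and 5.77 for RPA1 in replicate 1, and 15.7 and 14.9 in replicate 2. With 1 list per protein and replicate number, none of these differences could be tested over samples.

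RBMX and RPA1 coincided in the windows in both replicate numbers. In replicate 1, 27 of 30 RBMX window peaks (90%, interval 73.5% to 97.9%) overlapped an RPA1 peak by at least 1 bp, beside 37.6% of all chromosome peaks of that list and 29.6% of those outside the windows. From the side of RPA1, 28 of 33 peaks (84.8%, interval 68.1% to 94.9%) overlapped an RBMX peak, beside 26% of all and 19.6% of those outside. In replicate 2 the RBMX window peaks overlapped RPA1 in 87 of 117 cases (74.4%, interval 65.5% to 82%), and those of RPA1 overlapped RBMX in 86 of 96 (89.6%, interval 81.7% to 94.9%). These are close to the 73.5% and 86.9% of all chromosome peaks of the 2 lists. The windows thus stood above the rest in replicate 1 and near the background in replicate 2. The gene-free stretches of chromosomes 1, 9 and 16 were also high, at 71.4% of RBMX and 93.3% of RPA1 peaks in replicate 1 and 84.2% and 98.5% in replicate 2, so a high overlap was not particular to the windows. With replicate 1 held to the stricter threshold, RBMX had 13 of 15 (86.7%) in the windows against 75% outside. RPA1 had 14 of 17 (82.4%) against 54.5%, and the intervals inside and outside overlapped for both.

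Window peaks of the 2 proteins had their maxima at nearly the same base in replicate 1. The summits of overlapping peaks, 27 pairs seen from RBMX, were a median of 1 bp apart, and 25 of the 27 pairs were within 50 bp. Outside the windows the median of 59 pairs was 26 bp and 54.2% were within 50 bp. Past the stricter threshold the medians were 1 bp and 4.5 bp. In replicate 2 the median distance was 23 bp in the windows (87 pairs, 78.2% within 50 bp) and 26.5 bp outside (230 pairs, 65.7%).

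Peaks without a partner had a lower median fold than those with one in every list. The 30 window peaks of RBMX replicate 2 with no RPA1 partner had folds of 9.79 to 22.2 (median 15.7) and at most 33 tags at the summit, against a median fold of 22.2 for the 87 with a partner. The 10 of RPA1 replicate 2 with no RBMX partner had folds of 11.9 to 21 (median 15.2) and at most 40 tags. The weakest peak of the whole list had 13 tags for RBMX and 16 for RPA1, which is 1.95 and 2.32 RPM after scaling to library depth, so a peak could be called at fewer tags in the RBMX list. In replicate 1, 3 RBMX peaks (folds 8.69 to 10.0) and 5 RPA1 peaks (folds 6.19 to 14.1) had no partner. The ranges overlap, and some peaks found for 1 protein alone were above the median of the window peaks of their list, as 14.1 against 12.4 in RPA1 replicate 1.

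Tag levels at shared window peaks were also similar for the 2 proteins. For the 85 pairs of replicate 2 that were each other's best partner, RBMX tags at the summit divided by those of RPA1, both scaled to library depth, had a median of 0.93 (quartiles 0.79 and 1.03). Outside the windows the median of 221 pairs was 0.89 (quartiles 0.76 and 1.03). In replicate 1, where tags are counted over the whole peak, the median was 1.02 over 27 pairs. The lowest ratio, 0.44, was at 49666030 to 49667344 on chromosome 5, with 14 tags for RBMX and 33 for RPA1. In replicate 1 the same region had the highest ratio of the 27 pairs, 1.56, with 61 and 39 tags. Those tags were counted over peaks of unequal width, 1315 bp for RBMX and 758 bp for RPA1, so the 2 ratios are unlike measures. By fold RBMX was the lower in both replicate numbers, with 13.5 against 14.3 and 9.79 against 17.4. At the other end in replicate 2, with a ratio of 1.48, was the chromosome 17 region from 23068711 to 23068952, with 40 tags for RBMX and 28 for RPA1. These few tags leave wide counting error. In replicate 2, ratios above 1 were found for 27 of the 85 window pairs and 63 of the 221 outside. A ratio below 1 was thus the usual case there. For replicate 1 the counts above 1 were 14 of 27 window pairs and 25 of 58 outside. The 5 pairs of chromosome 11 in replicate 2 lay between 0.69 and 0.82.

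**Figure D3:**
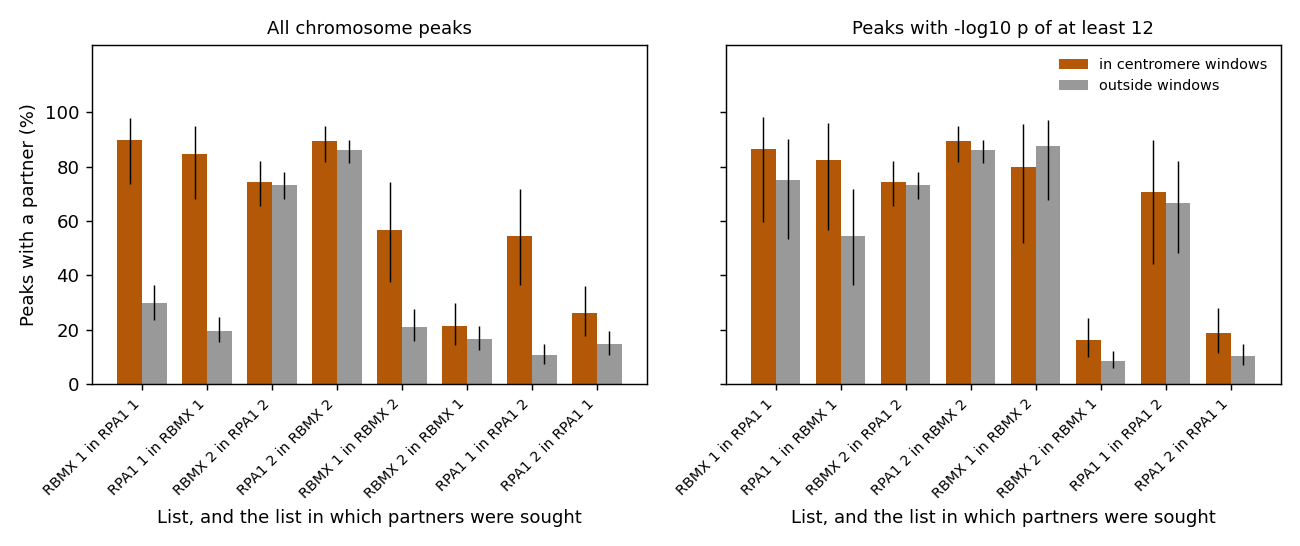
Bars give the share of peaks with an overlapping partner in another list (y axis, %) inside (brown) and outside (grey) the windows, for each list and the list searched (x axis), with exact 95% intervals as error bars. All chromosome peaks are on the left and those with a −log10 p-value of at least 12 on the right, where the gap of RBMX 1 in RBMX 2 turns from 56.7% against 21.1% to 80% against 87.5%.

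The 2 lists of a protein shared a smaller part of their window peaks than the lists of RBMX and RPA1 with the same replicate number. For RBMX, 17 of 30 window peaks of replicate 1 (56.7%, interval 37.4% to 74.5%) overlapped a peak of replicate 2, beside 25.8% of all chromosome peaks of the list and 21.1% of those outside. Of the 117 of replicate 2, 25 (21.4%) overlapped a peak of replicate 1, beside 17.9% of all. RPA1 had 18 of 33 (54.5%, interval 36.4% to 71.9%), beside 15% of all chromosome peaks and 10.6% of those outside, and from the side of replicate 2 it had 25 of 96 (26%), beside 17.6%. In the gene-free stretches of chromosomes 1, 9 and 16 the replicate 1 shares were higher still, at 85.7% for RBMX and 66.7% for RPA1. At the stricter threshold the excess of the windows was lost for replicate 1 of RBMX and small for that of RPA1. There, 12 of 15 RBMX window peaks (80%) against 87.5% outside, and 12 of 17 RPA1 window peaks (70.6%) against 66.7% outside, were found again. Seen from replicate 2 the windows stayed higher, with 16.2% against 8.6% for RBMX and 18.8% against 10.4% for RPA1. Replicate 1 peaks with a partner had a median fold of 14.0 for RBMX and 14.2 for RPA1, against 11.4 and 11.9 for those with none.

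All 4 lists held 16 of the 134 regions. Another 2 were found in 3 lists, 72 in a pair of lists and 44 in 1. Each pair joined the proteins of a replicate number, 63 times in replicate 2 and 9 times in replicate 1. Among those held by a single list, 28 belonged to RBMX replicate 2, 8 to RPA1 replicate 2, 5 to RPA1 replicate 1 and 3 to RBMX replicate 1. The 16 lay on chromosome 17 (5), chromosome 4 (3), chromosome 5 (4), chromosome 7 (3) and chromosome 3 (1). Leaving out 1 list at a time gave 16 or 17 regions held by all the others. With only 2 regions found in 3 lists this count was largely fixed in advance. At the stricter threshold 10 were left.

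On chromosome 17 the region from 26603583 to 26604305 had the highest smallest fold of the 16. Its RBMX folds were 40.8 in replicate 1 and 65.8 in replicate 2, and its RPA1 folds 34.9 and 58.4. It held 64 and 55 tags in replicate 1, and 100 and 114 tags at the summit in replicate 2. The region from 25919951 to 25920397 on the same chromosome, 1061295 bp from the nearest gene, the pseudogene LOC100422478, had RBMX folds of 38.1 and 41.7 and RPA1 folds of 32.9 and 26.5. The 2 neighbouring regions at 26619453 to 26620378 and 26885192 to 26885959 had replicate 1 folds between 14.8 and 18.8 and replicate 2 folds between 37.1 and 48.9. The last of these 5, at 22520981 to 22521779, 272 bp from MTCYBP13, had folds of 12.03 and 12.77 in replicate 1 and 41.0 and 29.6 in replicate 2. All 5 had larger folds in replicate 2 than in replicate 1 for RBMX, and 1 (25919951) had a smaller one for RPA1. The backgrounds differ, and the median fold outside the windows was also larger in replicate 2, at 17.9 against 5.61 for RBMX and 16.4 against 5.91 for RPA1.

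The top peak of every list, among peaks on chromosomes, was in the window of chromosome 3 or 4. The chromosome 3 window had 1 region, at 93470211 to 93471011, which was the top chromosome peak of both replicate 2 lists (260.4 and 202) and held 26.1 and 25.6 in replicate 1. Its nearest gene, the small nuclear RNA pseudogene RNU6-488P, was 372753 bp away. It held 700 RBMX tags and 710 RPA1 tags in replicate 1, the most of any window peak there, and 399 and 398 tags at the summit in replicate 2. The chromosome 4 region at 50555822 to 50556348 was the top peak of both replicate 1 lists, with folds of 46.1 and 48.0 but 70 and 74 tags. In replicate 2 its folds were 40.4 and 27.0, and the nearest gene, the pseudogene SNX18P25, was 966094 bp away. The order by fold and the order by tags were thus different in replicate 1, where tags were counted over the whole peak. For RBMX and RPA1 the peaks were 741 and 801 bp wide on chromosome 3, and 400 and 527 bp on chromosome 4. The other chromosome 4 regions in this set were 49708716 to 49712098, with a highest fold of 93.8 for RBMX and 77.1 for RPA1 in replicate 2 against 11.9 and 12.4 in replicate 1, and 49120427 to 49121360, with folds of 8.74 to 15.9 over the 4 lists. A second strong chromosome 4 position, 50676786 to 50677275, had rank 2 for RBMX and rank 3 for RPA1 among the window peaks of replicate 2 (95.1 and 79.6) and had no peak in replicate 1.

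On chromosome 7 the 3 regions held by all lists were narrow and lay more than 400 kb from any gene. The region at 60310659 to 60311225 had folds of 23.4 and 23.5 in replicate 1 and 34.5 and 30.6 in replicate 2. The region at 58275663 to 58276062 had 15.4 and 14.1, then 16.95 and 17.9, and the region at 60019353 to 60019750 had 14.0 and 16.1, then 22.8 and 15.4.

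Across the 16 regions the 2 proteins ranked alike by fold within a replicate number, whereas the fold ranks of the replicate numbers, taken over unlike backgrounds, did not match. Spearman's rank correlation of fold over the 16 regions, given as a description, was 0.98 between RBMX and RPA1 in replicate 1 and 0.92 in replicate 2. It was -0.03 between the RBMX replicates and -0.05 between the RPA1 replicates. The regions share a library and a background within a list, and several are neighbours. Fold could be a ratio to a local background in replicate 1, though not at every peak, and was a ratio to 1 genome-wide level in replicate 2. The values between replicates therefore compare 2 measures and do not show whether signal strength was reproduced. The chromosome 4 region at 50555822, first in both replicate 1 lists, had ranks 10 and 11 of the 16 in replicate 2, and the chromosome 5 region at 49660542, last in both replicate 1 lists, had ranks 4 and 5. By tags at the summit in replicate 2 the chromosome 5 region was the higher of these, with 103 and 111 against 61 and 52. In replicate 1 it held 104 and 106 tags over the whole peak, against 70 and 74. Those tags were counted over unequal widths, 1449 bp for both proteins against 400 and 527 bp. The tags of the 2 replicate numbers are therefore unlike measures.

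**Figure D4:**
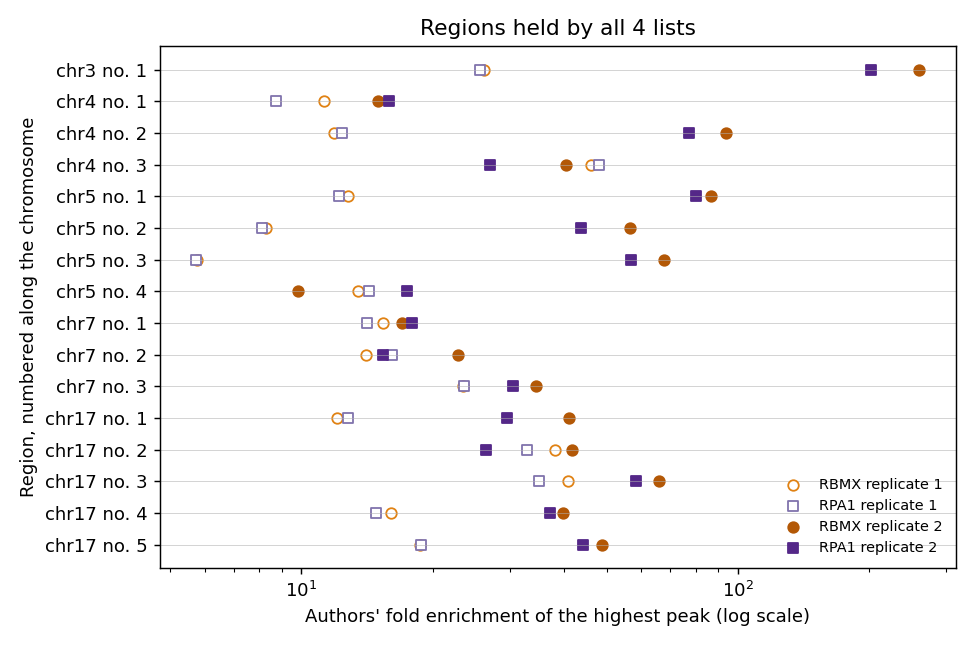
Each row (y axis) is one of the 16 regions held by all 4 lists, numbered along its chromosome, and points give the fold of its highest peak in each list (x axis, log scale), open for replicate 1 and filled for replicate 2. The 2 proteins of a replicate number mostly lie close together, less so in replicate 2 of chr5 no. 4 (9.79 and 17.4), and the chromosome 3 region stands highest in replicate 2 at 260.4 and 202.

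The clusters with the most peaks were on chromosome 5. Clusters were defined as chains of regions with gaps of up to 10 kb, a distance chosen after the positions were seen. There were 17 clusters of 2 or more regions on 8 chromosomes, and 10 of them had replicate 2 peaks only. On chromosome 5, 19 of 27 regions were clustered, as were 14 of 25 on chromosome 17, 7 of 9 on chromosome 10 and all 4 on chromosome 20. The 2 with the most peaks lay side by side on chromosome 5, at 49599249 to 49646515 and 49656628 to 49667344, and together spanned 68.1 kb. The gene nearest to both is EMB, which encodes the membrane protein embigin, 728848 bp from the near end of the span. In replicate 2 they held 23 of that window's 31 peaks for RBMX and 23 of 29 for RPA1, and all 4 peaks of each protein in replicate 1. The first cluster had 14 regions, 1 of which was held by all lists, with folds of 12.8 and 12.2 in replicate 1 and up to 86.6 and 80.1 in replicate 2. The second had 3 regions, all held by the 4 lists. In replicate 1 each of these regions was a single peak per protein. The one at 49656628 to 49660512 was 3780 bp wide for RBMX with a fold of 8.29 and 270 tags, and 3830 bp for RPA1 with 8.1 and 281 tags. In replicate 2 the same region was split into 4 peaks of each protein, with highest folds of 56.7 and 43.7. The last region, 49666030 to 49667344, was the only one of the 16 with a smaller RBMX fold in replicate 2 (9.79) than in replicate 1 (13.5), apart from the chromosome 4 region at 50555822. These folds were taken over different backgrounds, so their sizes are not on 1 scale.

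**Figure D5:**
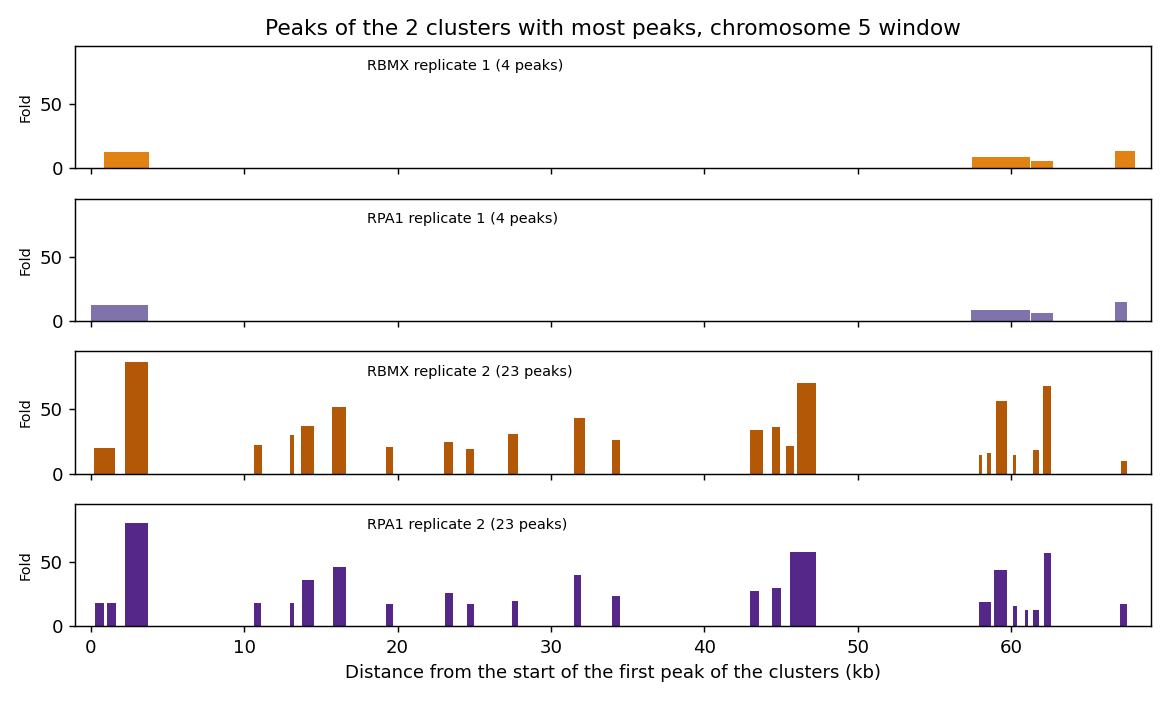
Bars give the fold (y axis, linear from 0) and the width of each peak along the 2 clusters with the most peaks in the chromosome 5 window, as distance in kb from the first peak (x axis), in 1 panel per list. Replicate 2 has 23 peaks of each protein at mostly matching places, and replicate 1 has 4 peaks of each, all near the ends of the span, with folds on another background.

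A shorter and denser span on chromosome 17, 26880923 to 26885959, held 5 peaks of each protein in replicate 2 (highest folds 73.6 and 62.9) within 5.04 kb, and 1 peak of each in replicate 1. Clusters on chromosome 10 (42067158 to 42090910, 6 RBMX and 4 RPA1 peaks) and chromosome 2 (90380694 to 90398714, 2 and 4 peaks) had replicate 2 peaks alone, with folds of at most 23.5 and 13.9. On chromosome 20 there was 1 cluster for each replicate number. The one at 28495105 to 28498921 had 2 peaks of each protein in replicate 2, with folds up to 31.9 and 20.5, and lay 81.7 kb from FRG1CP at its near end. The one at 31067678 to 31075824 had 2 RBMX peaks and 1 RPA1 peak in replicate 1, with folds of 5.47 to 8.69.

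The remaining 76 of the 134 regions stood alone, more than 10 kb from the next, and their peaks were short. For RBMX the median width of isolated peaks was 400 bp in replicate 1 and 232 bp in replicate 2, against 797 bp and 433 bp for clustered peaks. For RPA1 it was 535 bp and 233 bp, against 805 bp and 478 bp. Many window peaks of replicate 1 were between 350 and 400 bp wide, 13 of 30 for RBMX (43.3%) and 13 of 33 for RPA1 (39.4%), against 2.01% and 0.66% outside the windows. In replicate 2, 63.2% of RBMX and 56.3% of RPA1 window peaks were at most 300 bp wide, against 40.1% and 31.2% outside. The callers extended each tag to 200 bp, which was also the narrowest peak of the replicate 2 windows, with 11 RBMX and 8 RPA1 peaks at that width. Isolated peaks were the only kind in the windows of chromosomes 3, 7, 8, 11, 13, 14, 21 and 22.

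In the windows with replicate 2 peaks alone, or with no region shared between replicate numbers, the strongest region held by both proteins had a moderate fold. On chromosome 11 it was 51143328 to 51143628, with 41.0 for RBMX and 43.7 for RPA1. Chromosome 12 had 31.9 and 24.0 at 37245831 to 37246562, chromosome 10 had 23.5 and 17.9 at 42070398 to 42071060, and chromosome 14 had 20.2 and 15.9 at 17292758 to 17293029. On chromosome 19 the values were 18.9 and 16.9 at 27146787 to 27147005, on chromosome 21 they were 15.7 and 16.9 at 12035044 to 12035295, and on chromosome 2 they were 11.1 and 11.4 at 90397531 to 90397853. The chromosome 22 window held a single RBMX peak of replicate 2, at 14173582 to 14173795, with a fold of 15.7 and 23 tags.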

How the data were processed

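Per the file headers, the authors called replicate 1 peaks with MACS 1.4.2 without a control (p-value cutoff 1e-05) on 50 bp tags. Its deposited tags are whole-number counts per peak, and its deposited score is a log10 of p multiplied by minus 10 (divided by 10 here to give −log10). Its deposited fold is a ratio to a background that could be taken over up to 10000 bp. For replicate 2 the authors used MACS2 2.2.4 with the input as control (p-value cutoff 1e-12), 150 bp tags and no local background, per the file headers. Its deposited signal is the scaled pileup at the summit, its deposited p-values and q-values are on a −log10 scale, and its deposited fold is a ratio to 1 genome-wide level. Dividing the signal by the scale gave whole tags, within 0.02, for 100% of window peaks. The submitters' processing notes name hg38, Bowtie2 and deepTools 3.4.1.

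RefSeq sequence names of replicate 1 were mapped to chromosomes. Peaks were assigned to windows by midpoint, compared by overlap of at least 1 bp and merged, in Python 3.11.15 (pandas 2.3.3, SciPy 1.17.1, matplotlib 3.10.9 for plots). The overlap code was tested on simulated lists and recovered 100% of planted overlaps. Genes were placed by RefSeq (GRCh38.p14). No test over samples was possible with 1 list per protein and replicate number, so counts, medians and exact 95% intervals are given. The windows and lists were chosen with earlier results of these data known. Regions named are the 10 held by most lists with the largest smallest fold, the best such region of each chromosome, the 3 peaks of largest fold per list, genes of fixed families under a peak, the gene nearest to each of the 10 (for most, not repeated in the text), and the remaining regions held by all lists, which were added later. Repeat annotation and region sequence were not used here.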

Additional observations from a re-analysis of the deposited data

How the results depend on the processing

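Of 133 alternative values, computed for 32 results, 118 stayed within the 95% interval of the reported value (for counts, within 1.5 times; for means over replicates, within 1 SD) and 15 moved. Of the 118, 26 equal the reported value, and those where a setting removes no peak say nothing about stability. The same holds for 4 means over replicates, which cannot leave 1 SD with 2 replicates. At a −log10 p-value of at least 12, the threshold of replicate 2, the replicate 1 shares in the windows rose to 38.46% for RBMX and 34% for RPA1, the RBMX replicate overlap to 80%, the median folds to 16.04 and 16.13, and the regions held by all lists fell to 10. Among the 50% of peaks with the larger folds, the windows held 26.67% (RBMX replicate 1), 19.38% (RPA1 replicate 1) and 32% (RPA1 replicate 2). An overlap of 50% of both peaks lowered the overlap between replicates to 36.67% (RBMX) and 27.27% (RPA1) of replicate 1 peaks and to 9.402% and 9.375% of replicate 2 peaks. Summits within 200 bp gave 11.11% for RBMX and 14.58% for RPA1 of replicate 2. Peaks of the replicate numbers differ in width, by construction of the lists. The mean share over replicates was 20.12% for RBMX and 17.74% for RPA1; leaving out a replicate gave 13.1% to 27.15% and 9.88% to 25.6%. Leaving out a list gave 16 to 17 regions held by all others. These counts were largely fixed in advance, since only 2 regions were held by 3 lists, and they say nothing about stability either. Leaving out the window of chromosome 4, 5, 7 or 17, an alternative chosen after seeing the data, moved none of the overlaps or median folds outside its interval. No paired analysis was possible because the results come from no test and the number 1 is not in the labels. At 6664290 and 6889249 tags, the weakest peaks of the replicate 2 lists had 13 and 16 tags.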
